A study of Mus musculus with 20 samples.

Results

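The genes described here encode the cytosolic ribosomal proteins, the protein components of the ribosome that translates nuclear-encoded mRNA. They were picked by name: symbols of the Rpl or Rps form followed by a number, plus Rplp0, Rplp1, Rplp2 and Rpsa, without the Rps6k kinases and without pseudogenes. Earlier results of these data were known when the choice was made. The rule found 63 genes among the 20255 named genes on the array, 37 for the large and 26 for the small subunit. Each gene was read from its brightest probe, and 59 of the 63 were above background on at least 2 arrays and could be tested among 12710 such genes. As a check of the family against the data, 33 of the 63 had a mean value of 14 or more on a log2 scale whose highest value was 15.19, as abundant mRNAs would. Several ribosomal protein genes of interest in T-cell leukaemia or in p53 control, such as Rpl5, Rpl10 and Rpl11, were not found under the rule and are not analysed here.

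The study compared mouse thymus grafts, T-cell acute lymphoblastic leukaemia (T-ALL) and normal lymphoid tissue on 20 Illumina bead arrays. The 4 thymus graft arrays came from F1(WB x B6/Ly5.1) grafts at 10 weeks, labelled as autonomous thymus, meaning a graft in which thymocyte production goes on by itself. The 7 T-ALL arrays and the 3 arrays labelled T-ALL_Rag- came from leukaemias on the same F1 background, and all of these 10 arrays are marked in the labels as analysed again. The labels do not explain the Rag- mark. The 2 wild-type thymus and 2 wild-type spleen arrays came from all thymocytes and all splenocytes of C57BL/6 mice, and the 2 host spleen arrays from all splenocytes of WB graft hosts. Cells were taken from suspensions or after sorting, which is not given array by array, and no age is given apart from that of the grafts. Whether arrays of 1 label came from separate mice is not given either, so a p-value here speaks only of how much these arrays varied, a variation that may be technical.

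Eukaryotic ribosomes are built in the nucleolus from ribosomal RNA and ribosomal proteins, and the proteins are made in near-equal amounts. Their mRNAs are among the most abundant in dividing cells, and many begin with a run of pyrimidines through which mTOR and Larp1 control their translation. Growing thymocytes and leukaemic T cells need many ribosomes, and some ribosomal protein genes, such as RPL22 in human T-ALL, are lost or mutated in leukaemia.

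Start-site sequences are shown because this family is known for a shared start-site signal and because these genes carry the results that follow. The windows run from 10 bases before to 20 bases from the annotated start, 5′ to 3′ on the gene's strand, from the RefSeq promoter table for GRCm38.p6, which matched 52 of the 63 genes. In the first 4, capitals mark the pyrimidine run that begins at the annotated start, and in the next 2 they mark CCGGAAG, the core recognised by ETS factors. The last 3 hold neither and are shown because their values are described in the comparisons that follow.
Rpl38 (chr11:114668570-114668599, + strand): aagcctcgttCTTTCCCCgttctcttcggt
Rpl35 (chr2:39005112-39005141, - strand): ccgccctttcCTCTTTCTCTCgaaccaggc
Rps6 (chr4:86857348-86857377, - strand): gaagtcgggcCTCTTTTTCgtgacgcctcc
Rps10 (chr17:27635225-27635254, - strand): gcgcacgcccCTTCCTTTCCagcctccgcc
Rps3a1 (chr3:86142649-86142678, - strand): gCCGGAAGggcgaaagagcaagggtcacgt
Rpl26 (chr11:68901556-68901585, + strand): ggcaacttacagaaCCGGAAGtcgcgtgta
Rpl36a (chrX:134585644-134585673, + strand): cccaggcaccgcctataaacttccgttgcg
Rps25 (chr9:44407704-44407733, + strand): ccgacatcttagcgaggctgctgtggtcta
Rplp0 (chr5:115559457-115559486, + strand): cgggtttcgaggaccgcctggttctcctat
A C at the annotated start followed by at least 4 more C or T letters, read on the gene's strand only, stood at the start of 10 of the 52 genes, 19.2%, against 2.49% of all 27025 promoters in the table. CCGGAAG on either strand lay within the 300 bases from 250 before to 50 after the start in 44.2% of the 52 genes, against 9.12% of all promoters. The GC box GGGCGG was present in 61.5% against 35.9%, and ATGGCGGC, a core of YY1 sites, in 7.69% against 2.38%. The E box CACGTG was present in 9.62% against 7.24%. The GC box, the YY1 core and the E box were read on either strand. TATAAA, read on the gene's strand only, was present in 9.62% against 8.88%. These are matches of letters in 1 annotated start per gene, and motifs of this kind can overlap each other.

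Several arrays did not look like their labels, which touches every comparison made with them. Wild-type thymus 1 had a mean of 14.05 over 10 granulocyte genes and 7.71 over 9 double-positive thymocyte genes, and wild-type spleen 1 had 14.31 over the granulocyte genes. Such list means take in every listed gene with a probe, also those at background. Wild-type spleen 3 stood at 12.03 for granulocyte genes, whereas both host spleens stood at 11.24 and 11.01 for the double-positive thymocyte genes, which include Rag1. Grafts 2 and 3 had erythroid means of 10.23 and 10.62, against 7.32 and 7.37 in grafts 1 and 4. All values were on 1 quantile-normalised scale, on which every array had a median of 6.95. The normalization sets that median, and the amount of RNA behind each array is unknown. Fewer cells of a type and less RNA per cell cannot be told apart in such bulk samples.

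Many ribosomal protein probes lay near the top of this scale, among 74 other genes with a mean of 14 or more. Counting only the brightest probe of each gene, between 16 and 26 of the 100 brightest probes on each array belonged to these genes. The fewest were on wild-type spleen 1 and the most on T-ALL 7. Further probes of the same genes, such as a second one of Rps12 at a mean of 15.05, were not counted. The brightest probes were those of Rps12, at a mean of 15.06, Rpl9 at 15.02, Rps4x and Rpl38 at 14.98 each, and Rps9 at 14.97. Of the 63 genes, 31 lay within 1 log2 unit of the highest value on the scale. Brightness depends on the probe as well as the RNA, so these levels give no order of abundance among the genes.

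**Figure D1:**
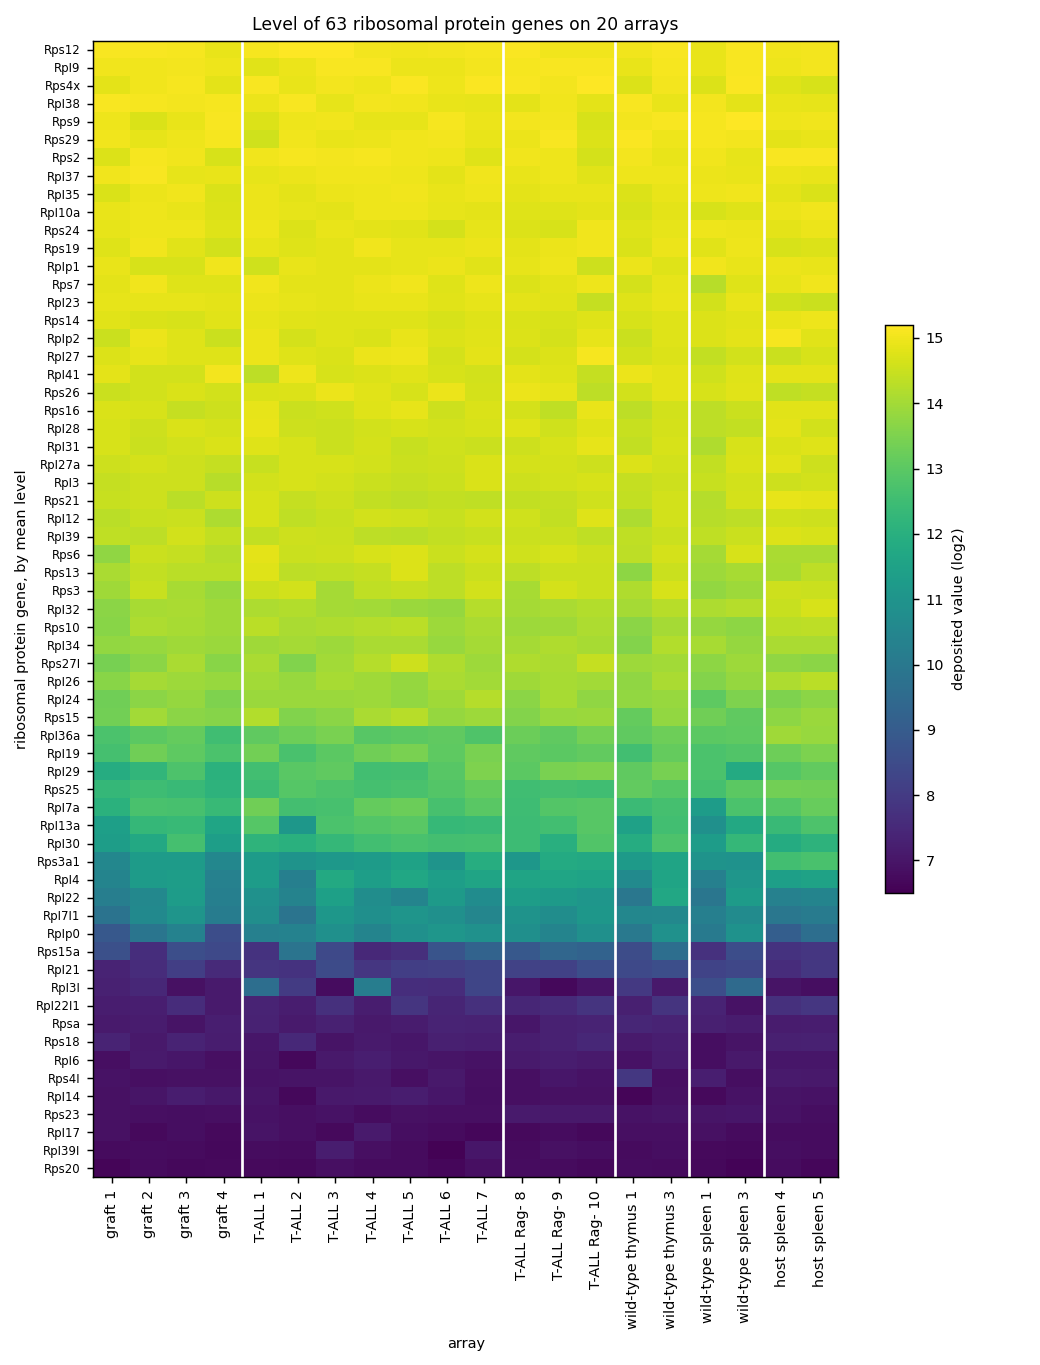
Deposited log2 value of each of the 63 ribosomal protein genes (rows, by mean level) on each of the 20 arrays (columns, grouped by label, with white lines between labels). The upper 33 rows are near the top of the scale on every array, a band of 17 genes lies between 10 and 14, and the lowest rows are near the background of 6.78.

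Most genes near the top of the scale differed little between arrays. Because sorted values were the same on all arrays to within 0.01, exactly 21 probes lay at 15 or more and 199 at 14 or more on every array. The 33 genes at 14 or more had a median SD within labels of 0.14, against 0.26 for the 12 ribosomal protein genes at 12 to 14 and 0.48 for the 5 at 10 to 12. Other genes followed the same order, with medians of 0.16, 0.30 and 0.36. At 14 or more, though, the SD within labels of other genes reached 1.61, so large differences can appear there. Whether the bright ribosomal protein genes were even in RNA or held together by the scale was not tested. The highest value corresponds to 37381 in linear units, below the 16-bit scanner limit of 65535, and whether single spots were saturated before normalization was not tested.

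The most even genes were mostly the brightest ones. Rpl37 ranged from 14.81 to 15.13 (SD 0.073), Rps12 from 14.90 to 15.19 (SD 0.078), Rps14 from 14.67 to 14.97 (SD 0.080) and Rpl9 from 14.81 to 15.13 (SD 0.088). Rps20 had the smallest SD, 0.071, because its probe was at background on all 20 arrays.

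The most variable gene was Rpl3l, a muscle-type relative of Rpl3, with an SD of 1.04 over the 20 arrays. It was at 9.65 in T-ALL 1 and 10.19 in T-ALL 4, at 9.52 and 8.58 in wild-type spleens 3 and 1, and at 8.33 or less on the other 16 arrays. Its high arrays crossed the labels, and 8 arrays lay below the background limit of 7.12. Rpl3 itself, which helps form the peptidyl transferase centre, ranged only from 14.25 to 14.71. The next most variable were Rplp0 (SD 0.73), Rps15a (SD 0.72), Rpl13a (SD 0.64) and Rps3a1 (SD 0.57).

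At the lower end, 4 genes could not be tested: Rps23, Rpl17 and Rpl39l rose above background on 1 array each and Rps20 on none. The dimmest of those tested were Rpl14, at a mean of 6.94, Rps4l at 7.00, Rpl6 at 7.02, Rps18 at 7.19 and Rpsa at 7.22. Most of these encode constitutive ribosomal proteins, and whether these probes measure their mRNA was not tested. Of the related pairs, Rpl22 had a mean of 10.78 and Rpl22l1, its regulated relative, 7.46, Rpl39 14.46 and Rpl39l 6.80, and Rps4x 14.98 and Rps4l 7.00. Rps27l and Rpl7l1, whose partners are not analysed here, had means of 13.95 and 10.58. Rps4l was above background on 3 arrays and highest, at 7.90, in wild-type thymus 1. Many ribosomal protein genes have near-identical pseudogene copies, and whether a probe also caught those was not tested.

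The comparison of T-ALL with grafts asks how leukaemia differs from a thymus working on its own. None of the 59 genes tested passed the threshold of an adjusted p of 0.05 by limma, where 0.323% of all genes tested did (41 of 12710). At an unadjusted p under 0.05 there were 11 of the 59, or 18.6%, and 2153 of all genes tested, or 16.9%, which is near the same share. T-ALL was higher for 47 genes and lower for 12, with a median difference of 0.11 on the log2 scale against 0.01 over all genes tested. The arrays of T-ALL and grafts overlapped for every one of the 59, where 1.3% of all genes were higher and 1.04% lower without overlap.

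The differences lay mostly in the middle of the scale. All 17 ribosomal protein genes at 10 to 14 had a higher mean in T-ALL, with a median difference of 0.36, against 0.01 for 2598 other genes at that level. Of the 33 at 14 or more, 23 were higher and 10 lower, with a median of 0.05. Chips 1 and 2 each held T-ALL and graft arrays: the median over all 59 genes was 0.12 on chip 1 alone and 0.12 on chip 2 alone, and all 17 middle genes were higher in T-ALL on both.

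**Figure D2:**
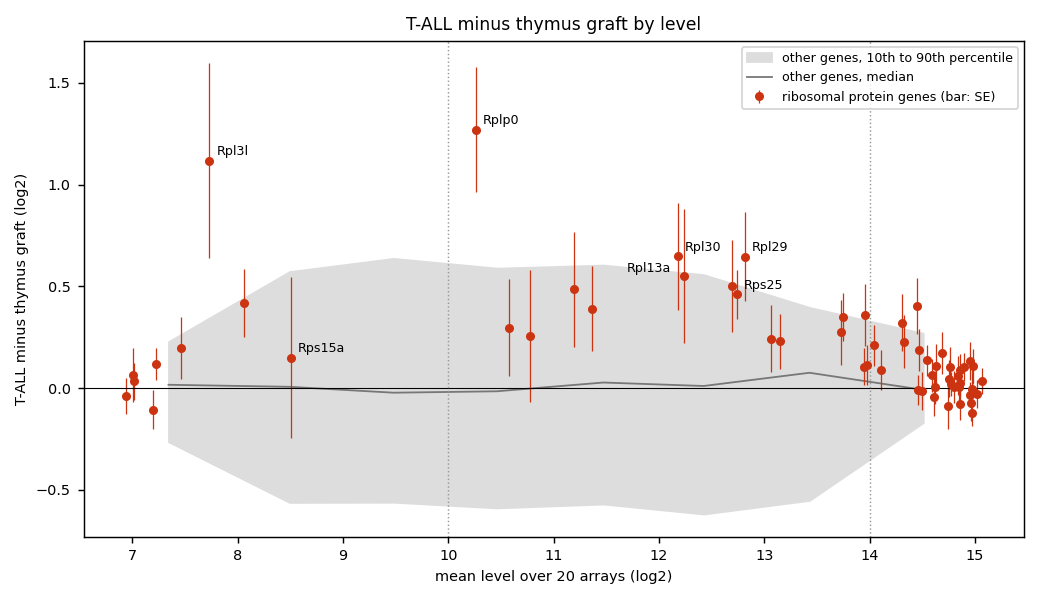
T-ALL minus thymus graft on the log2 scale (vertical axis, points with SE) against the mean level over 20 arrays (horizontal axis, log2) for the 59 genes tested, over the median and the 10th to 90th percentile of other genes in level bins. All 17 genes between the dotted lines at 10 and 14 lie above 0, and those at 14 or more lie close to 0.

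The stalk protein Rplp0, part of the flexible arm that recruits elongation factors, differed most. It was at 8.89, 9.87, 10.36 and 8.54 in grafts 1 to 4, and at 10.30 at the lowest, 10.85 at the median and 11.07 at the highest in the 7 T-ALL arrays. Grafts 1, 2 and 4 were below every T-ALL array, whereas graft 3 overlapped them. The means were 10.69 ± 0.31 (SD, n = 7) in T-ALL and 9.42 ± 0.84 (SD, n = 4) in grafts, a difference of 1.27 (SE 0.31), or 2.41-fold, with a limma adjusted p of 0.0681. The other stalk proteins, Rplp1 and Rplp2, were near the top of the scale and had differences of 0.01 (SE 0.10) and 0.11 (SE 0.10).

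Rps25, a small-subunit protein that some viral RNAs need for translation, was at 12.29, 12.50, 12.38 and 12.14 in grafts 1 to 4. In T-ALL its lowest value was 12.47, its median 12.78 and its highest 13.14. T-ALL 1 alone lay below the highest graft. The difference was 0.46 (SE 0.12) with a limma adjusted p of 0.0790.

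Rpl29 and Rpl30, both large-subunit proteins, differed by 0.65 each (SE 0.22 and 0.26), with limma adjusted p-values of 0.139 and 0.216. Rpl29 was at 11.89, 12.24, 12.78 and 12.07 in grafts 1 to 4 and between 12.55 and 13.53 in T-ALL. Rpl30 was at 11.35, 11.74, 12.65 and 11.37 in the grafts and between 12.03 and 12.71 in T-ALL. In both genes graft 3 was the graft that reached the T-ALL values. Rpl3l differed by 1.12 (SE 0.48), carried by T-ALL 1 and T-ALL 4. The largest differences downward were 0.12 for Rpl38, 0.10 for Rps18 and 0.09 for Rpl41 on the log2 scale, each smaller than 2 SE.

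None of the genes on a list tied to human disease or to p53 was called, and Rpl22, Rps14, Rps19, Rpl23 and Rpl26 are the 5 of its 8 genes analysed here. Rpl22, at 10.84 ± 0.39 in T-ALL (SD, n = 7) and 10.59 ± 0.50 in grafts (SD, n = 4), differed by 0.26 (SE 0.32). Rps19 and Rps14, both linked to failing red cell production in humans, differed by 0.09 (SE 0.08) and 0.02 (SE 0.06). Rpl23 and Rpl26, which bind Mdm2 or the p53 mRNA, differed by 0.01 (SE 0.08) and 0.11 (SE 0.09). Rps14, Rps19 and Rpl23 were near the top of the scale, where most differences were small, and a dimmer probe of Rpl23 differed by 0.54.

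Which grafts were used decided the calls. In the 17 middle genes the median per array was 12.05 and 12.14 in grafts 1 and 4 and 12.50 and 12.68 in grafts 2 and 3. T-ALL arrays lay between 12.69 and 12.99, above all 4 grafts. Grafts 2 and 3 both exceeded grafts 1 and 4 in 16 of these 17 genes, with a median gap of 0.50. In the 33 bright genes they both exceeded them in 13 and were both below in 6, with a median gap of 0.09. Pairs of 2 arrays separate easily, and the share of all genes split in this way was not counted.

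Without graft 3, Rplp0, Rpl30, Rpl29, Rps25, Rpl24 and Rpl21 were called higher in T-ALL, which is 10.2% of the 59, where 8.73% of all genes were then called. Leaving out grafts 2 and 3, a choice made after seeing the data, gave 6 as well, with Rps6 in place of Rpl21, where 9.42% of all genes were called. Both shares are close to those of all genes. Rplp0 then differed by 1.59 and 1.97 (limma adjusted p 0.00482 and 0.000827).

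The same 2 grafts also differed from the others in cell markers. The double-positive thymocyte list stood at 11.21, 10.58, 9.74 and 11.23 in grafts 1 to 4 and at 9.12 to 10.64 in T-ALL. All 8 of its genes tested were lower in T-ALL, with none called. The erythroid list stood at 8.55 to 11.28 in T-ALL. In the cell cycle list graft 3 alone was high, with 10.08, 9.93, 11.03 and 10.05 in the grafts and 10.44 to 11.09 in T-ALL. The granulocyte list stood at 6.84, 10.93, 8.87 and 6.77 in grafts 1 to 4 and at 6.95 to 11.81 in T-ALL. The macrophage list stood at 7.01, 9.81, 10.66 and 7.01 in the grafts and at 8.82 to 10.35 in T-ALL. All 10 granulocyte and all 9 macrophage genes tested were higher in T-ALL, with none called. Of the defining red cell genes, the haemoglobin gene Hba-a1 was at 9.11 or more on all 20 arrays. Alas2, the first enzyme of haem synthesis in red cells, was at 6.79 in both graft 1 and graft 4, and Slc4a1, the red cell anion exchanger, at 6.83 and 6.74, all below the background limit of 7.12. The part of these cell types in the graft and T-ALL values was not tested.

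**Figure D3:**
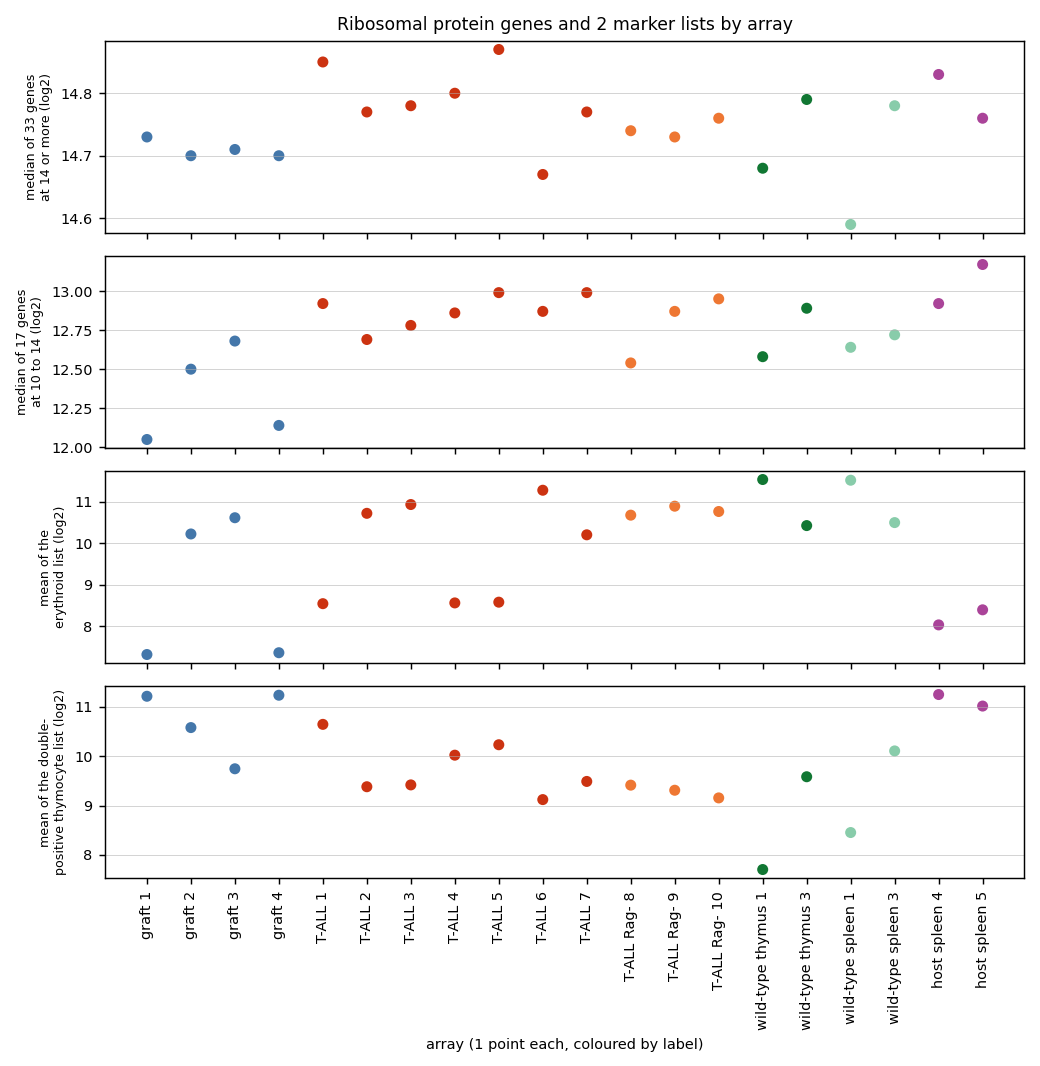
Median log2 value of the 33 bright and the 17 middle ribosomal protein genes, and mean log2 value of the erythroid and double-positive thymocyte lists, on each array (horizontal axis, 1 point per array, coloured by label). Middle genes are lowest in grafts 1 and 4, at 12.05 and 12.14, which also have the lowest erythroid means. The next lowest erythroid means, 8.04 and 8.40 in host spleens 4 and 5, stand beside high middle medians of 12.92 and 13.17.

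Dimmer probes of the bright genes did not repeat the values of the bright probes. Among genes at 14 or more, 10 further probes of 8 genes lay above 8 and below 14. T-ALL minus graft had a median of 0.51 on these probes, 8 higher and 2 lower, against 0.01 on the brightest probes of the same genes. The second probe of Rpl38 was at 9.48, 10.23, 11.18 and 9.47 in grafts 1 to 4 and 11.12 to 12.22 in T-ALL, a difference of 1.46, where the brightest probe differed by -0.12. That of Rps13 went the other way, with -0.97 against 0.23. Whether such probes read other transcripts or copies was not tested.

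**Figure D4:**
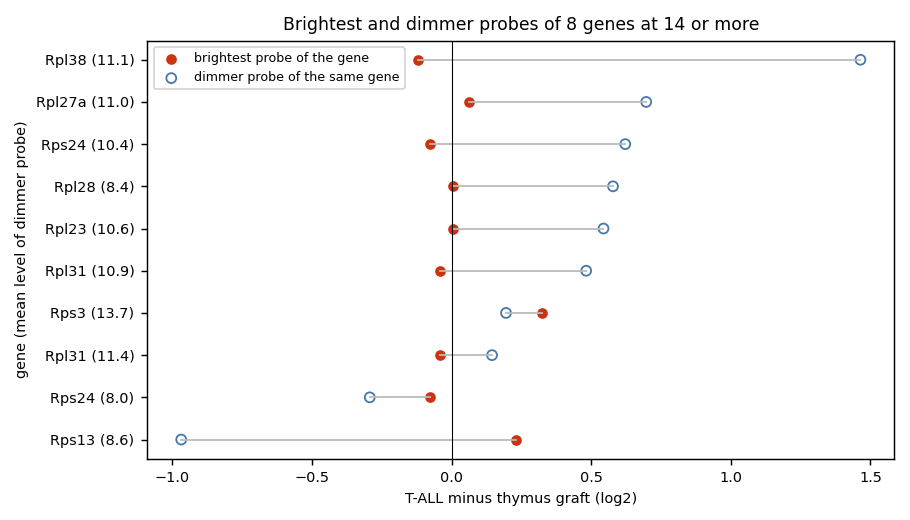
T-ALL minus thymus graft on the log2 scale for the brightest probe (filled) and each dimmer probe (open) of 8 genes at 14 or more, with the mean level of the dimmer probe in brackets. Most dimmer probes lie to the right of the brightest one, up to 1.46 for Rpl38, and the lowest is that of Rps13 at -0.97.

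Lists of genes that act with the ribosome were also compared between T-ALL and grafts, and none of their tested genes was called. Of 11 elongation factor genes tested, 10 were higher, with a median of 0.32, including Eef1g at 0.35 (SE 0.15), while Eef1a1, which brings tRNA to the ribosome, was at the top of the scale with 0.02 (SE 0.06). Of 23 initiation factor genes, 17 were higher, with a median of 0.37, including Eif3i at 0.37 (SE 0.12) and Eif3f at 0.00 (SE 0.09). Of 23 genes of ribosome assembly and ribosomal RNA synthesis, 20 were higher, with a median of 0.33, including the nucleolar chaperone Npm1 at 0.33 (SE 0.28). Of 14 genes that control ribosomal protein mRNA or the p53 response, 8 were higher and 6 lower, with a median of 0.01. Mdm2, the p53 ligase bound by free ribosomal proteins, was lower by a log2 difference of -0.73 (SE 0.21, limma adjusted p 0.0900). Rpl36al, a copy of Rpl36a outside the rule, differed by -0.05 (SE 0.11).

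The T-ALL arrays labelled Rag- were then compared with the other T-ALL arrays. No ribosomal protein gene was called, where 0.0% of all genes were, and 1 of the 59 and 652 of all genes had an unadjusted p under 0.05, or 1.69% and 5.13%. The median difference was 0.00, with 30 genes higher and 29 lower. The largest differences upward were those of Rps15a, 0.70 (SE 0.44), Rpl29, 0.44 (SE 0.24), and Rpl22, 0.37 (SE 0.36), and the largest downward those of Rpl3l, -1.42 (SE 0.53), Rps25, -0.23 (SE 0.13), and Rpl7a, -0.18 (SE 0.25).

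Rpl3l was at 7.03, 6.69 and 6.96 in the Rag- arrays, all below the background limit, and at 6.79 at the lowest, 8.00 at the median and 10.19 at the highest in the other T-ALL arrays. T-ALL 3 lay within the Rag- range, so the labels overlapped. Since the Rag- arrays give only a bound, the T-ALL mean of 8.32, from 6 of 7 arrays above the limit, was at least 2.29-fold higher, with a limma adjusted p of 0.901. Such a bound sets, on each dim array, the lowest value above the limit in place of a lower one. Only T-ALL 7 shared chip 3 with the Rag- arrays, and against it alone the median was -0.04, with 21 genes higher and 37 lower. Pancreatic acinar genes, which mark exocrine tissue, stood at 9.55, 7.26 and 9.45 in the Rag- arrays and 8.70 in T-ALL 7, against 6.88 to 7.25 in T-ALL 1 to 6, and their part in these values was not tested.

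The Rag- arrays were also compared with the grafts, using the same 4 graft arrays as before. No ribosomal protein gene was called, where 0.0157% of all genes were (2 genes), and 9 of the 59, or 15.3%, and 2075 of all genes, or 16.3%, had an unadjusted p under 0.05. Rag- arrays were higher for 47 and lower for 12, with a median of 0.12 against 0.01 over all genes. The groups did not overlap for 11 higher genes, or 18.6% of the 59, and for 2 lower genes, or 3.39%, where 7.18% and 5.63% of all genes did so.

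Rplp0 was at 10.83, 10.44 and 10.86 in the Rag- arrays, above all 4 grafts, a difference of 1.30 (SE 0.37, limma adjusted p 0.140). Rpl29 was at 13.01, 13.46 and 13.51, also above all grafts, a difference of 1.08 (SE 0.27, limma adjusted p 0.119). Rps15a differed by 0.85 (SE 0.48). The largest differences downward were -0.30 for Rpl3l, -0.18 for Rpl38 and -0.17 for Rpl23. Rpl3l was not above background in the Rag- arrays and at a mean of 7.20 in the grafts, so its difference is not a measured fold. Rpl38 and Rpl23 were the 2 genes whose arrays were lower without overlap, but their dimmer probes differed upward, by 1.57 and 1.15.

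Without graft 3, Rpl29, Rplp0, Rpl21 and Rps27l, a p53-induced relative of Rps27, were called higher in the Rag- arrays, or 6.78% of the 59, where 8.84% of all genes were called. Without grafts 2 and 3 there were 6, or 10.2%, where 8.57% of all genes were called: Rplp0, Rpl29, Rps3a1, Rpl21, Rps6 and Rpl36a. Genes of ribosome assembly were higher in the Rag- arrays for 22 of 23, with a median of 0.73 and none called. The Rag- arrays were on chip 3 and the grafts on chips 1 and 2, so chip and label cannot be told apart.

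Cell markers moved with this comparison too. The erythroid list stood at 10.68, 10.90 and 10.77 in the Rag- arrays, higher than in the grafts for 7 of 8 genes tested, with a median of 2.54. The double-positive thymocyte list was lower for 8 of 8 genes tested, with a median of -1.73, and the macrophage list higher for 9 of 9, with a median of 1.36. None of these genes was called, and their part in the ribosomal protein values was not tested.

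Grafts and wild-type thymus differ in strain and chip as well as in origin, and these cannot be told apart. No ribosomal protein gene was called, where 0.0787% of all genes were (10 genes), and 7 of the 59, or 11.9%, and 2578 of all genes, or 20.3%, had an unadjusted p under 0.05. The median was -0.07 against 0.01 over all genes, with 21 genes higher in grafts and 38 lower. The groups did not overlap for 1 higher gene, or 1.69%, and 4 lower genes, or 6.78%, where 10.6% and 8.01% of all genes did so.

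Rpl29 was at 13.08 and 13.41 in wild-type thymus and at 11.89 to 12.78 in the grafts, a difference of -1.0 (SE 0.30, limma adjusted p 0.122). Rpl21, a large-subunit protein, was at 8.41 and 8.59 in wild-type thymus and 7.38 to 8.11 in the grafts, a difference of -0.84 (SE 0.23, limma adjusted p 0.112). In both genes all grafts were below both wild-type arrays. Rplp0, at 10.02 and 10.89 in wild-type thymus, overlapped graft 3 and differed by -1.04 (SE 0.42). The largest differences upward were those of Rpl14, 0.29, Rps15, 0.21, and Rps13, 0.15. Rpl14 was not above background in wild-type thymus and was above it in 1 of 4 grafts, so its difference is not a measured fold.

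Single arrays decided these calls too. Without graft 3, Rplp0, Rpl29, Rpl21 and Rps25 were called lower in grafts, or 6.78% of the 59, where 8.69% of all genes were called. Without wild-type thymus 3, which leaves the granulocyte-rich array alone, Rps4l and Rps25 were called, the median turned to 0.05, and 11.3% of all genes were called. Rps4l was not above background in any graft. The wild-type arrays stood at 14.05 and 10.08 for the granulocyte list against 6.77 to 10.93 in the grafts, and its part in these values was not tested.

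Host spleen gave the only calls among ribosomal protein genes. Against grafts, 3 of the 59, or 5.08%, were higher, where 0.323% of all genes were called in either direction (41 of 12710). The median was 0.09 against -0.05 over all genes, with 39 higher and 20 lower. The groups did not overlap for 20 higher genes, or 33.9%, and 5 lower genes, or 8.47%, where 10.2% and 13.3% of all genes did so.

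Rps3a1, a small-subunit protein at the mRNA exit side, was at 12.57 and 12.71 in host spleens 4 and 5 and at 10.54, 11.27, 11.27 and 10.54 in grafts 1 to 4. Both host arrays were above all 18 others, where the highest was 11.92 in T-ALL 7. The means were 12.64 ± 0.10 (SD, n = 2) and 10.91 ± 0.42 (SD, n = 4), a difference of 1.74 (SE 0.29), or 3.33-fold, with a limma adjusted p of 0.0120.

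Rpl36a, a large-subunit protein with a zinc finger, was at 13.96 and 13.86 in host spleens and 12.74, 13.02, 13.15 and 12.52 in grafts 1 to 4. The highest of the other 18 arrays was 13.46, in T-ALL 3. The means were 13.91 ± 0.07 (SD, n = 2) and 12.86 ± 0.28 (SD, n = 4), a difference of 1.05 (SE 0.19), or 2.07-fold, with a limma adjusted p of 0.0197.

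Rps25 was at 13.35 and 13.33 in host spleens, again above all other arrays, whose highest was 13.14 in T-ALL 7. Its mean was 13.34 ± 0.01 (SD, n = 2) against 12.33 ± 0.15 (SD, n = 4) in grafts, a difference of 1.01 (SE 0.17), or 2.02-fold, with a limma adjusted p of 0.0120. All 3 calls were lost when either host array was left out or when only these 2 labels were fitted. Leaving out a host array leaves 1 array in that label, and fewer of all genes were then called too. The differences without a host array were 1.67 and 1.81 for Rps3a1, 1.0 and 1.10 for Rpl36a, and 1.0 and 1.02 for Rps25. The call of Rpl36a was also lost without graft 4, at 0.94 with a limma adjusted p of 0.0529.

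**Figure D5:**
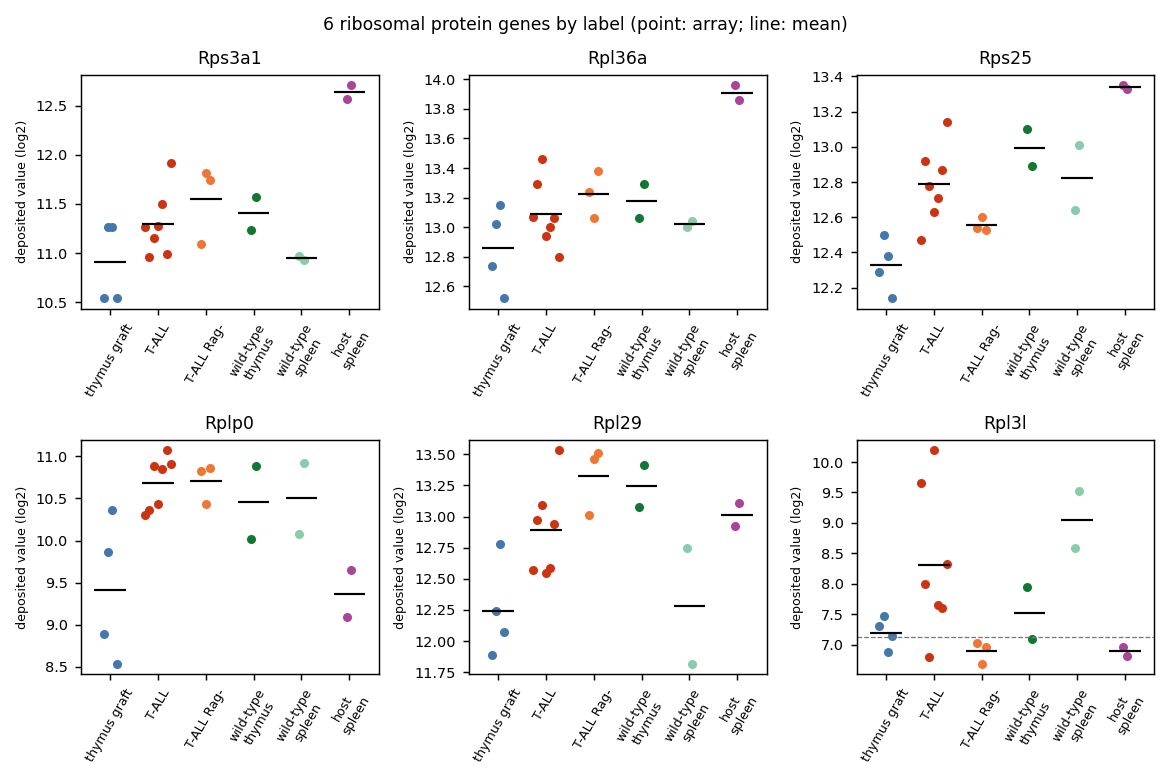
Deposited log2 value of 6 ribosomal protein genes on each array (points, by label) with the label mean (line); the dashed line for Rpl3l is the background limit of 7.12. Both host spleen arrays lie above all others for Rps3a1, Rpl36a and Rps25, 3 of the 4 grafts are lower than all T-ALL arrays for Rplp0, and Rpl3l is high on single arrays of several labels.

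The host arrays were above all 18 others for 10 of the 63 genes and below all others for none. All 10 were among the 59 tested, or 16.9%, where 4.27% of all genes tested lay above all others and 3.45% below. Besides those 3, these were Rpl32, at 14.47 and 14.68 against at most 14.25 elsewhere, Rpl26, at 14.14 and 14.29 against at most 14.11, and Rps2, Rps14, Rps21, Rpl39 and Rps10. Rpl32 differed from grafts by 0.62 with a limma adjusted p of 0.0639. The largest differences downward from grafts were those of Rps15a, -0.49, Rpl7l1, -0.38, and Rpl23, -0.34, the last without overlap. Host spleen did not stand high for Rplp0, which was at 9.09 and 9.65, near the grafts and below all T-ALL arrays.

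The host arrays and grafts 1 and 4 had near-equal means for the double-positive thymocyte list, 11.24 and 11.01 against 11.21 and 11.23. Single genes of that list differed in both directions. Rps3a1 was at 12.57 and 12.71 in the host arrays against 10.54 in both grafts. The erythroid list was at 8.04 and 8.40 in the host arrays and 7.32 and 7.37 in grafts 1 and 4. The macrophage list was at 8.53 and 8.51 in the host arrays and 7.01 in both grafts. The part of cell content in these values was not tested. Without grafts 2 and 3, a choice made after seeing the data, Rps3a1, Rpl36a, Rps25 and Rpl32 were called. They are 6.78% of the 59, where 0.511% of all genes were then called. Grafts 2 and 3 were above grafts 1 and 4 for each of these genes, so leaving them out widens the differences. Host and graft arrays differ in strain, WB against F1(WB x B6/Ly5.1), and in chip, and these cannot be told apart from the label.

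Host spleen was also set against wild-type spleen, on the same chip, with the same 2 host arrays. Of the 59 genes, 2 were called, both higher, or 3.39%, where 2.98% of all genes were called (379 of 12710), which is near the same share. The median was 0.16 against -0.03 over all genes. The groups did not overlap for 28 higher genes, or 47.5%, and 11 lower genes, or 18.6%, where 26.7% and 28.1% of all genes did so.

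Rps3a1 was at 10.97 and 10.93 in wild-type spleens 1 and 3, below both host arrays, a difference of 1.69 (SE 0.33, limma adjusted p 0.0191). Rpl36a was at 13.00 and 13.04, a difference of 0.89 (SE 0.22, limma adjusted p 0.0369). Rpl13a differed by 1.26 (SE 0.52, limma adjusted p 0.164). The largest differences downward were those of Rpl3l, -2.16 (SE 0.76), Rplp0, -1.13 (SE 0.49), and Rpl21, -0.55 (SE 0.27). Rpl3l was at 8.58 and 9.52 in wild-type spleen and at 6.82 and 6.96, not above background, in host spleen, so wild-type spleen was at least 3.81-fold higher (measured means 9.05 and 6.89, limma adjusted p 0.116).

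Wild-type spleen 1 and 3 were unlike each other, and the calls followed. Without wild-type spleen 3, 7 genes were called higher, or 11.9%, where 12.1% of all genes were called: Rpl7a, Rps3a1, Rpl36a, Rps7, Rps21, Rpl26 and Rpl31. Neither call was kept without wild-type spleen 1 or without either host array. Each of these fits leaves 1 array in a label, and far fewer of all genes were called in them too. The median differences were 0.08 without wild-type spleen 1, and 0.16 and 0.145 without host spleens 4 and 5. The granulocyte list was at 14.31 and 12.03 in wild-type spleens 1 and 3 against 7.25 and 7.07 in host spleens, and the double-positive thymocyte list at 8.45 and 10.10 against 11.24 and 11.01, so cell content moved with the label, and its part was not tested. Eif4ebp2, which holds back cap-dependent translation, was the only gene called among the 14 that control ribosomal protein mRNA or p53, higher in host spleen by 1.80 (SE 0.26, limma adjusted p 0.00350).

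Last, wild-type spleen was compared with wild-type thymus, both C57BL/6 and both on chip 4. No ribosomal protein gene was called, where 0.0% of all genes were, and 3 of the 59 and 664 of all genes had an unadjusted p under 0.05, or 5.08% and 5.22%. The median was -0.09 against -0.01 over all genes, with 15 higher and 44 lower in spleen. The largest differences upward were those of Rpl3l, 1.53 (SE 0.76), Rpl35, 0.18, and Rplp2, 0.16, and the largest downward those of Rpl29, -0.96 (SE 0.35), Rps15a, -0.95 (SE 0.63), and Rpl13a, -0.72 (SE 0.52). In Rpl29, spleen was at 12.75 and 11.82 and thymus at 13.08 and 13.41, without overlap. Without wild-type thymus 3, Rps4l was called lower in spleen, where 1.63% of all genes were called, and it was above background on 3 arrays only.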

How the data were processed

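RNA was extracted and hybridised to Illumina mouse bead arrays, per the labels' protocols. The deposited values used here are log2 intensities that the authors had quantile normalised, as the values themselves show: once sorted, any 2 arrays matched to within 0.01. The software and any background step are not given in the sources used here. A second deposited table, not normalised, was set aside because none of its 20 columns could be tied to a label.

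Of 46089 probes, 35667 had 1 symbol, 0 several and 10422 none in the platform annotation. Symbols were updated through RefSeq genes (3273 changed). Each gene took its brightest probe. Background was the mode of all values, 6.78, and the limit 7.12 is that plus 3 SD of its lower side. Genes above it on at least 2 arrays were tested with limma 3.58.1 in R 4.3.3, on all 20 arrays in 6 labels (14 residual degrees of freedom), with Benjamini-Hochberg adjustment over 12710 genes and a threshold of 0.05. On simulated data for T-ALL minus grafts over 12710 genes, 71 of 100 genes changed by 1 on the log2 scale and 93 of 100 changed by 2 were recovered. There were 8 false calls. The simulated noise was independent between genes and arrays, with 1 SD per gene. It held no shift shared by many genes, as in grafts 2 and 3, and no top of the scale. The recovered shares therefore need not hold for the ribosomal protein genes. Tables were handled in Python 3.11.15 with pandas 2.3.3.

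The number of arrays, from 2 to 7 a label, limits the precision. Members and lists were chosen with earlier results of these data known. Named genes were, per comparison, all called ones up to 10, or else the 3 largest differences each way, together with the 5 brightest, dimmest, most and least variable, the related pairs, the stalk proteins, Rpsa and 8 genes tied to disease or p53. Of each other gene list the called genes or the 2 brightest were named; Hba-a1, Alas2, Slc4a1 and Rag1, the genes called only with arrays left out, Rpl24, Rpl41, Rps15, Rps13, Rpl32 and the second probes were named after their values were seen. Alternatives were chip as a block, each chip alone, other centrings, filters, probes and background offsets, only the 2 labels compared, and each array left out.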

Additional observations from a re-analysis of the deposited data

Results flagged for a closer look

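Within T-ALL (7 arrays) and grafts (4 arrays), 6 of 124 sets of values had 1 array far from the rest by Dixon's gap ratio, and chance flags about 1 in 20 such sets. T-ALL 1 was low for Rps29, at 14.57 where the others were at 14.91 to 15.05, and for Rplp1, at 14.56 where the others were at 14.81 to 14.95. T-ALL 7 was low for Rps2, at 14.77 against 14.97 to 15.09, and high for Rpl24, at 14.22 against 13.79 to 13.97. T-ALL 2 was low for Rpl13a, at 11.09 against 12.34 to 12.99, and for Rpl4, at 10.24 against 11.30 to 11.78.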

How the results depend on the processing

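None of the called genes reversed direction under any alternative, but calls were lost in several of them, as given below. Calls over all genes also rose or fell when single arrays were left out. Some medians near 0 changed sign. That of grafts minus wild-type thymus went from -0.068 to 0.047 without wild-type thymus 3. With only the 2 labels fitted, no ribosomal protein gene was called for host spleen minus grafts (0) or host spleen minus wild-type spleen (0); the latter gave 1 when arrays were centred on bright genes outside the family and 1 with no intensity filter. That centring moved the median for grafts minus wild-type thymus to -0.196, and it shifted wild-type thymus 1 by -0.245 and wild-type spleen 1 by -0.29. With genes at 14 or more in both labels left out, medians became 0.265 for T-ALL minus grafts, 0.272 for Rag- minus grafts, -0.251 for grafts minus wild-type thymus, 0.211 for host spleen minus grafts, 0.33 for host minus wild-type spleen and -0.22 for wild-type spleen minus thymus, as fewer genes near the top of the scale enter. Without grafts 2 and 3, chosen after seeing the data, 6 genes were called for T-ALL minus grafts and 6 for Rag- minus grafts. Leaving out each array in turn gave 0 to 6 called for T-ALL minus grafts, 0 to 4 for Rag- minus grafts, 0 to 4 for grafts minus wild-type thymus, 0 to 3 for host spleen minus grafts, 0 to 7 for host minus wild-type spleen and 0 to 1 for wild-type spleen minus thymus; the causes were not tested. Rps3a1, Rps25 and Rpl36a passed for host spleen minus grafts in 14, 14 and 13 of 17 alternatives. The wild-type arrays share numbers 1 and 3, whose deviations correlated at 0.68 over genes; with these as a replicate block, wild-type spleen minus thymus gave 0 called and a median of -0.085. Values near 15 or 7 limit what can be seen.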

Other observations

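Rpl22 and Rpl7l1 varied more between arrays of 1 label than between label means. Rpl22 was at 10.21, 10.56, 11.30 and 10.27 in grafts 1 to 4, 9.95 and 11.73 in wild-type thymus, and 9.92 and 11.29 in wild-type spleen, and at 11.34, 11.24 and 11.06 in the Rag- arrays. Rpl7l1 was at 9.83, 10.63, 11.02 and 10.15 in grafts 1 to 4 and 9.94 and 10.12 in host spleens. Rps15a, a small-subunit protein, was high on T-ALL 2, at 9.84, and T-ALL 7, at 9.27, and low on T-ALL 4 and 5, at 7.5 and 7.67, so its T-ALL values spread over the whole range of the 20 arrays.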
